A study of Mus musculus with 8 samples.

Results

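Leukocyte trafficking adhesion genes were followed across single-cell RNA-seq (scRNA-seq) libraries of leukocytes from mouse brain parenchyma, pia and dura. The set was chosen by name and holds 8 of the 30406 genes that all libraries list. It contains the selectin ligand gene Selplg, the integrin genes Itgal, Itgb2, Itgb7 and Itgae, the integrin ligand gene Icam1, and S1pr1 and Cd69, which steer exit from tissue and are neither selectins nor integrins. No selectin gene is in the set. Cells were CD45iv- CD45+, that is, leukocytes that an antibody injected into the blood before perfusion had not reached. They came from male C57BL/6 mice of 10 to 16 weeks, either without stroke (control) or after transient middle cerebral artery occlusion (MCAO), with no genetic alteration in any group. The 8 libraries were 1 control library each of brain, pia and dura, 1 library each of pia and dura at 24 h after MCAO, 2 of brain at 24 h (replicates 1 and 2) and 1 of brain at 72 h. Occlusion lasted 30 or 45 min, and which of these applied to the sequenced mice is not given in the sources used here. The study names its sequenced controls both naive and sham, and its reporting summary gives 2 rounds pooled to an n of 5 per compartment without dividing this among libraries. Moreover, 1 label of the control pia library names brain parenchyma whereas its others name pia.

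Leukocytes leave blood in steps. P-selectin glycoprotein ligand 1, encoded by Selplg, binds selectins and slows the cell, and integrins on the leukocyte then bind ligands on endothelium. Itgal and Itgb2 encode the alpha and beta chains of LFA-1, whose ligand ICAM-1 is encoded by Icam1. Itgb7 encodes the beta chain that pairs with the alpha chain CD103, encoded by Itgae, which binds E-cadherin and is known for holding T cells and dendritic cells in epithelia and other barrier tissue. S1pr1 encodes a receptor for sphingosine 1-phosphate that leads lymphocytes out of tissue, and CD69 removes this receptor from the cell surface and marks activated and tissue-resident lymphocytes.

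Positions are those of GENCODE M21 on GRCm38. Selplg lies at chr5:113818536-113832644 on the minus strand, Itgal at chr7:127296260-127335138 on the plus strand and Itgb2 at chr10:77530252-77565708 on the plus strand. Itgb7 lies at chr15:102215995-102231944 on the minus strand, Itgae at chr11:73090583-73147446 on the plus strand and Icam1 at chr9:21015985-21028817 on the plus strand. S1pr1 lies at chr3:115710433-115715072 and Cd69 at chr6:129267325-129275436, both on the minus strand. All are protein-coding, and none shares a strand with an overlapping gene, but Haspin overlaps Itgae and Gm47079 overlaps Icam1 on the opposite strand.

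Among the members, 2 of 8 (Icam1 and Itgb7) had an entry in the set of RefSeq promoters used here. The Icam1 promoter is shown because Icam1, with values lower in brain than in meninges in several clusters, is discussed at length here and is known as a target of NF-kappaB. It holds the 250 bases before the RefSeq start of transcription, chr9:21015690-21015939 on the plus strand of GRCm38.p6. This RefSeq start lies upstream of the GENCODE start of Icam1 given above (21015985). Capitals are at a match to the kappaB motif GGAAATTCC, 153 to 145 bases before the RefSeq start.
Icam1: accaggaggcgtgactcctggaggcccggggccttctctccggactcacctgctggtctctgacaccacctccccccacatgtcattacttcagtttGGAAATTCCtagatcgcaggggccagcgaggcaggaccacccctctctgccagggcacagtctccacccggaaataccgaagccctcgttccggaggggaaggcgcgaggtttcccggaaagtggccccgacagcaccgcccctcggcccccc
Both strands were searched for these 9 letters (GGAATTTCC is the reverse complement). They occur in 94 of 32851 RefSeq mouse promoters of this length (0.286%). The match is a description of the letters and was not tested as a site.

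The libraries held 6591898 to 20754181 unique molecular identifiers (UMIs, counted molecules), and 1083 to 2505 UMIs in the median annotated cell. The authors' annotation gave 32457 cells a place in 1 of 21 clusters, and 26 of 27 marker genes checked were highest in the cluster they name, the exception being Cd3g. Most of these 27 are genes that the study itself named when annotating its clusters. The macrophage markers Apoe and Lyz2 were not among these 27, and neither singled out Macro_2. Lyz2 was higher in Granulo_1 than in Macro_2 in each library with both. Apoe was higher in CAM_2 than in Macro_2 except in control brain and brain 24 h replicate 1. Both granulocyte markers, S100a8 and Hp, were highest in the author cluster Granulo_2 and not in Granulo_1. Libraries shared 0 to 32 cell barcodes with one another. Brain 24 h replicate 2 and brain 72 h stood apart from the other 6 libraries: their barcodes began with AAACCC and not with AAACCT, and their gene list had 31053 in place of 32285 entries. Between 41.8% and 52.0% of genes in a cluster differed more than 2-fold between brain 24 h replicates 1 and 2. Against replicate 1, replicate 2 was lower for Selplg in 10 of 10 clusters and for Itgb2 in 10 of 10, and higher for Itgal in 4 of 4 and for S1pr1 in 5 of 5. Brain 72 h was lower than replicate 1 for Selplg in 9 of 10 clusters and for Itgb2 in 10 of 10, and higher for Itgal in 7 of 7 and for S1pr1 in 8 of 8. Summed erythroid marker levels were 427 and 275 CPM (UMIs of a gene per 1000000 UMIs of the same sum) in these libraries against 0 to 93.7 in the others. The part of these differences in the results was not tested, and values with and without both libraries are given where they matter. Among the study's supplementary data, brain 72 h and dura 24 h are labelled kit version 3 and the others version 2.

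UMIs were summed per library and cluster and given as CPM, and a library gave a value to a cluster when it held at least 30 of its cells. This held for 112 of 168 sums. Means ± SD are over libraries. Each gene is compared only with itself, since a level in UMIs depends on the gene. A lower level can mean fewer cells with the transcript or less of it per cell. Clusters had been formed from these same counts, so differences between clusters are described without a test.

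**Figure D1:**
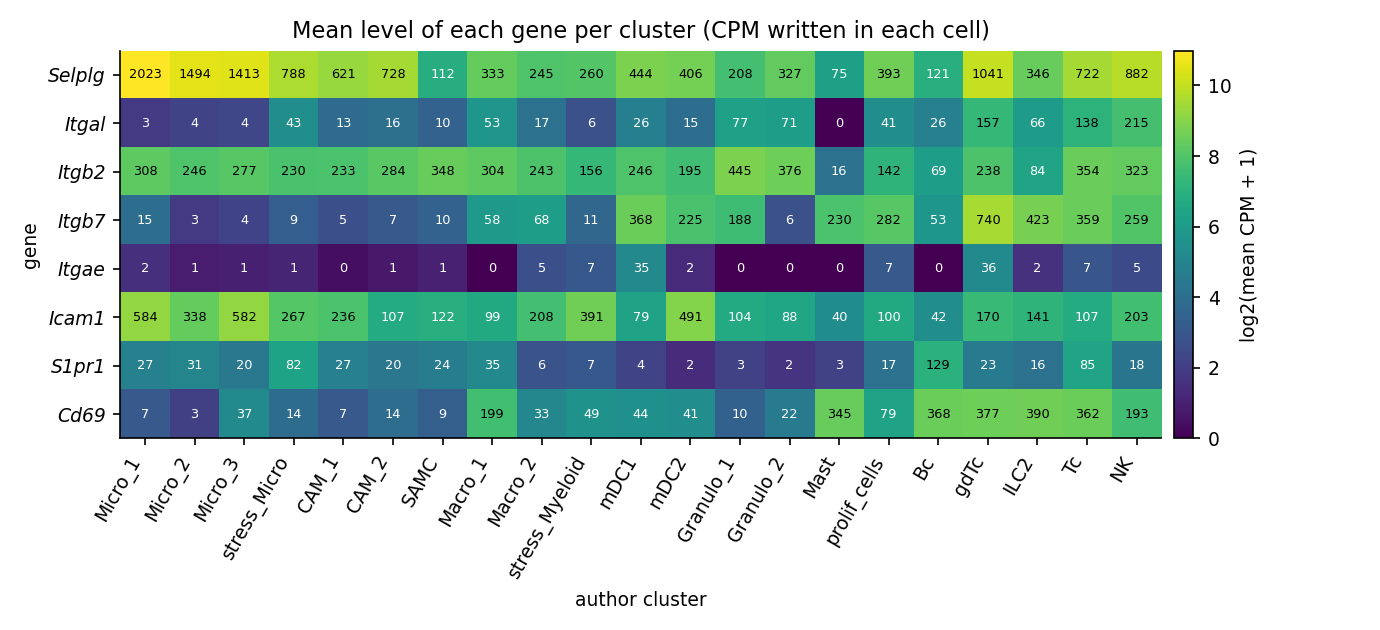
Mean level of each gene (rows) in the 21 author clusters (columns), in CPM written in each cell and coloured on a log2 scale; rows are to be read along, not down. Selplg peaked in Micro_1 (2023 CPM), Itgb2 in Granulo_1 (445 CPM) and Itgb7 in gdTc (740 CPM), whereas Cd69 was highest in ILC2, gdTc, Bc and Tc.

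Selplg was highest in microglia. Its mean level was 2023 ± 1731 CPM in Micro_1 (SD, n = 7), 1494 ± 1371 in Micro_2 (n = 6) and 1413 ± 1110 in Micro_3 (n = 6). Among lymphoid clusters it averaged 1041 ± 389 CPM in γδ T cells (gdTc, n = 4), 882 ± 365 in natural killer (NK) cells (n = 6) and 722 ± 240 in T cells (Tc, n = 8). Stressed microglia with 788 ± 27.9 CPM (n = 2) and the macrophage cluster CAM_2 with 728 ± 1361 (n = 8) came between NK and Tc. Type 2 innate lymphoid cells were lower, with 346 ± 92.1 CPM (n = 5). Stroke-associated myeloid cells (SAMC) were at the low end with 112 ± 33.9 CPM (n = 4), beside B cells (Bc) with 121 ± 39.2 (n = 6) and mast cells with 75.2 ± 47.2 (n = 2). Along the order of the 21 clusters, 1 of 20 neighbouring steps was larger than the SD of either cluster, from Granulo_1 (208 CPM) to Bc. The order within microglia was steadier than these means: Micro_1 exceeded Micro_2 and Micro_3 in 6 of 6 shared libraries each.

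The libraries differed widely. In Micro_1, Selplg was at 4615 CPM in control brain, 4344 in brain 24 h replicate 1, 1235 in replicate 2 and 1057 at 72 h, and at 1639 in control pia, 1029 in pia 24 h and 240 in dura 24 h. In Micro_1 of dura 24 h, however, the microglial markers Tmem119, P2ry12 and Sparc summed to 444 CPM, against 2560 to 15984 in the other libraries. Control brain and replicate 1 were the high pair, and the brain libraries that stood apart reached about the level of pia. In the CNS-associated macrophage cluster CAM_1, Selplg was at 3227 CPM in control brain, 1047 in replicate 1, 270 in replicate 2 and 182 at 72 h, against 67.2 in control pia, 55.1 in pia 24 h, 58.2 in control dura and 57.6 in dura 24 h. In CAM_2 the values were 4007, 1025, 182 and 114 CPM in the same brain libraries, and 126, 101, 172 and 100 in the same meningeal ones. All 4 brain values lay above all 4 meningeal values in CAM_1, whereas in CAM_2 brain 72 h fell within the meningeal range. SAMC varied less, from 86.8 CPM in pia 24 h to 162 in replicate 1, with the other brain libraries at 98.5 (24 h) and 102 (72 h).

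**Figure D2:**
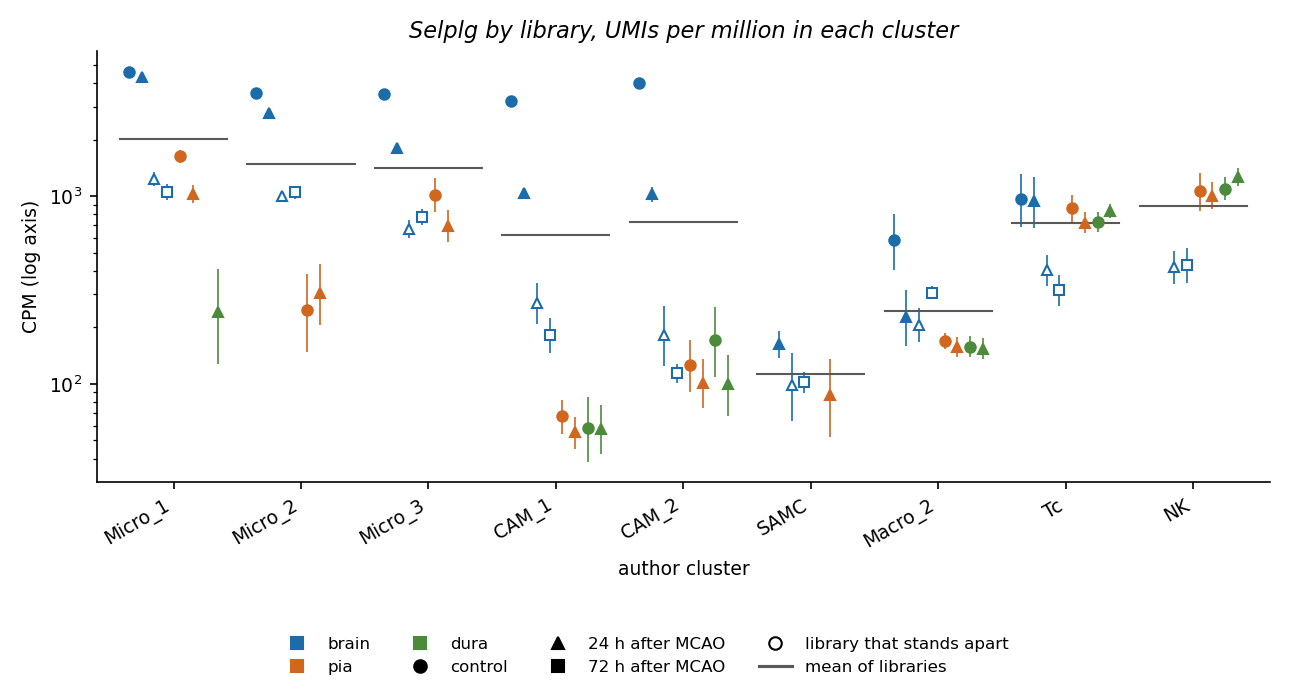
Selplg in CPM (log axis) in 9 author clusters, one point per library with at least 30 cells of the cluster. Colour gives the tissue, shape the state, open symbols the libraries that stood apart, bars the exact 95% Poisson interval and grey lines the mean of libraries. Control brain and brain 24 h replicate 1 lie above the meningeal points in CAM_1 and CAM_2, while SAMC lies between 86.8 and 162 CPM.

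The first test asked whether cells given the same cluster name differed between brain and meninges, using control and 24 h libraries with the state as a block (edgeR quasi-likelihood test, 1 fit per cluster over all genes, Benjamini-Hochberg adjusted p under 0.05 as called). The study describes a shorter digestion with more enzyme for brain than for pia and dura, and a density gradient for brain alone. Site and tissue handling therefore cannot be told apart in this test. Among all genes, 3.04% of 53741 tests were called, and of 42 tests of members in 9 clusters 2 were, both for Selplg. Of the 42 member tests, 15 had an unadjusted p under 0.05 by edgeR, beside 14.7% of all tests. DESeq2 called 6 of the 42, all for Selplg or Icam1, beside 4.81% of all tests with an adjusted p. By cluster, 0.529% of all genes were called in Micro_1, 1.21% in Micro_2, 0.0954% in Micro_3, 0.534% in Macro_2, 0% in Granulo_1, 0.401% in Granulo_2 and 1.12% in Tc. Selplg was higher in brain in CAM_1, by 4.14 on the log2 scale (SE 0.62, adjusted p = 0.00317 by edgeR, n = 3 against 4), and in CAM_2, by 3.39 (SE 0.63, adjusted p = 0.0107 by edgeR, n = 3 against 4). In CAM_1 13.0% of all genes were called, 5.59% as higher in brain, and in CAM_2 8.41% and 4.13%. The call in CAM_1 was kept without each single library (adjusted p at most 0.0474 by edgeR). The call in CAM_2 was lost without control brain (2.50, adjusted p = 0.137 by edgeR), without control dura (3.17, 0.0563) and without control pia (3.07, 0.0632).

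Marker genes moved with this difference. In CAM_1, the summed level of the 3 microglial markers Tmem119, P2ry12 and Sparc was 10162 CPM in control brain, 2583 in brain 24 h replicate 1, 961 in replicate 2 and 420 at 72 h, against at most 183 in the meningeal libraries. The 3 CAM markers Pf4, Lyve1 and Mrc1 summed to 41.9, 6.66, 420 and 562 CPM in the same brain libraries, against 3100 to 5075 in the meninges, and Lyve1 was at 0 in control brain and in replicate 1. In CAM_2 the microglial sum was 11521, 2328, 777 and 257 CPM in brain against 180 to 306 in the meninges, so that brain 72 h lay within the meningeal range. The CAM sum in CAM_2 was 15.3, 6.24, 383 and 286 CPM in brain against 2547 to 4517 in the meninges. The data thus go against the label CAM in the brain libraries, where CAM markers were low in both clusters. The part of this in the Selplg difference was not tested.

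Other clusters gave Selplg values in the same direction that did not pass the test. In Micro_2, Selplg was at 3570, 2792 and 999 CPM in control brain and brain 24 h replicates 1 and 2, and at 246 and 307 in control pia and pia 24 h (log2 difference 3.17, SE 0.79, adjusted p = 0.0722 by edgeR). The groups did not overlap, and the call was made by DESeq2 (adjusted p = 0.00107). Pia Micro_2 also held CAM markers, at 2632 CPM in control pia and 1676 in pia 24 h against 1.83 to 17.9 in the 4 brain libraries. Without brain 24 h replicate 2, edgeR called 11 of 30 member tests beside 5063 of 42269 tests over all genes, Selplg in Micro_1, Micro_2 and Micro_3 among them, and without replicate 1 it called 8 of 30 beside 2929 of 39114. In Macro_2 the brain values of 581, 227 and 207 CPM did not overlap the meningeal 154 to 170 (0.67, SE 0.34, adjusted p = 0.338 by edgeR).

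The LFA-1 alpha chain gene Itgal was highest in the lymphoid clusters NK, gdTc and Tc. It averaged 215 ± 167 CPM in NK (n = 6), 157 ± 76.5 in gdTc (n = 4) and 138 ± 118 in Tc (n = 8), followed by Granulo_1 with 77.5 ± 78.6 (n = 7) and Granulo_2 with 71.0 ± 74.2 (n = 6). Other lymphoid clusters were lower, with 66.1 ± 108 CPM in type 2 innate lymphoid cells (n = 5) and 26.4 ± 15.7 in Bc (n = 6). Micro_1 to Micro_3 held 2.64 to 4.06 CPM, and both dura libraries held no UMI in mast cells. No step between neighbours in this order was beyond the spread of libraries, but NK exceeded Tc in 6 of 6 shared libraries. Without both libraries that stood apart, gdTc (124 CPM) came before NK (109 CPM).

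The Itgal values of Tc show how far the libraries reached. They were 149 CPM in control brain (6 UMIs), 22.4 in brain 24 h replicate 1 (1 UMI), 352 in replicate 2 and 281 at 72 h, and 99.2 in control pia, 52.9 in pia 24 h, 85.5 in control dura and 61.1 in dura 24 h. In NK, replicate 2 had 432 CPM and brain 72 h 422, against 166 in control pia, 75.9 in pia 24 h, 107 in control dura and 87.1 in dura 24 h. The libraries that stood apart were highest in both clusters. Against the meninges, Itgal in Tc differed by 1.80 (log2, SE 0.58, adjusted p = 0.127 by edgeR) with overlapping groups.

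Itgb2, the beta chain that LFA-1 shares with Mac-1, was broad. It averaged 445 ± 223 CPM in Granulo_1 (n = 7), 376 ± 78.0 in Granulo_2 (n = 6), 354 ± 145 in Tc (n = 8) and 348 ± 190 in SAMC (n = 4), and microglial, CAM, Macro and dendritic clusters lay between 195 and 308. It was low in type 2 innate lymphoid cells (ILC2) with 84.0 ± 40.7 (n = 5), in Bc with 69.0 ± 21.1 (n = 6) and in mast cells with 16.5 ± 6.27 (n = 2). The steps from proliferating cells to ILC2 and from Bc to mast cells were larger than the SDs of the clusters they join. Granulo_1 was above Macro_2 and CAM_1 in 7 of 7 shared libraries each, but above Granulo_2 in 3 of 6. The granulocyte marker S100a8 was at 0 to 2481 CPM in Granulo_1 and at 80642 to 150090 in Granulo_2. The ranges of Hp overlapped (66.4 to 1451 and 918 to 3672 CPM). The macrophage marker Lyz2 was at 17853 to 59439 CPM in Granulo_1 and at 6116 to 21340 in Macro_2.

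Within pia, Itgb2 was more than 2-fold higher at 24 h after MCAO in 4 of 12 clusters, where 8.97% of all genes in these clusters were. It went from 106 to 217 CPM in CAM_1, from 120 to 284 in CAM_2, from 150 to 313 in Macro_2 and from 233 to 672 in Granulo_1. In dura CAM_1 it went from 79.8 to 173 CPM. In Macro_2 of brain, Apoe was at 29666 CPM in control and at 5362 to 7120 after MCAO, and its part in the Itgb2 values was not tested. Itgb2 in Macro_2 was at 145 CPM in control brain, 549 in replicate 1, 209 in replicate 2 and 212 at 72 h. In Macro_2 of dura it was at 154 CPM in control and 211 at 24 h. All 4 values at 24 h in Macro_2 lay above all 3 control values, and the common difference of 0.91 (log2, SE 0.44) did not pass the test (adjusted p = 1.00 by edgeR).

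Icam1, the ligand of LFA-1, was itself read from leukocytes here. It averaged 584 ± 652 CPM in Micro_1 (n = 7), 582 ± 549 in Micro_3 (n = 6), 491 ± 289 in type 2 myeloid dendritic cells (mDC2, n = 6) and 338 ± 90.7 in Micro_2 (n = 6). Tc held 107 ± 16.3 CPM (n = 8) and Bc 42.1 ± 45.3 (n = 6). No neighbouring step in this order was larger than the SDs involved. Endothelial cells are a textbook source of ICAM-1, and the 4 endothelial markers Cldn5, Flt1, Ly6c1 and Kdr summed to 1.17 to 42.3 CPM over the annotated cells of a library.

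Icam1 had lower values in brain than in pia in microglia, and over the 9 clusters tested its log2 difference was below 0 in 6 and above 0 in 3, with none called by edgeR (4 at an unadjusted p under 0.05, and 3 called by DESeq2). In Micro_1 it was at 143 CPM in control brain, 211 in brain 24 h replicate 1, 319 in replicate 2 and 220 at 72 h, but at 1546 in control pia, 1522 in pia 24 h and 129 in dura 24 h. In Micro_3 it was at 162, 291, 363 and 368 CPM in the same brain libraries, 655 in control pia and 1653 in pia 24 h. In Macro_2 it was at 16.1, 183, 108 and 36.5 CPM in the brain libraries, 372 in control pia, 415 in pia 24 h, 273 in control dura and 261 in dura 24 h. Brain and meningeal values did not overlap in Micro_3 and Macro_2, and dura 24 h (7 UMIs) broke the split in Micro_1. The markers of dura 24 h go against the label microglia in Micro_1. Its microglial sum was 444 CPM, against 2560 to 15984 in the other libraries, and its CAM sum 592, against at most 154. The part of these markers in its Icam1 value was not tested.

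None of these Icam1 differences passed the edgeR test of brain against meninges. The log2 difference by edgeR was -2.09 in Macro_2 (SE 0.50, adjusted p = 0.0859), -2.22 in Micro_3 (SE 0.51, adjusted p = 0.187) and -2.26 in Micro_1 (SE 0.83, adjusted p = 0.453). DESeq2 called Macro_2, Micro_3 and CAM_1. CAM markers summed to 120 CPM in control pia and 154 in pia 24 h in Micro_1, against 2.30 to 8.36 in brain. In Micro_3 they summed to 268 and 167 CPM in pia, against 2.03 to 7.33 in brain, and their part in the difference was not tested. In Macro_2 the CAM sum was 549, 56.8, 278 and 68.7 CPM in brain against 559 to 1766 in the meninges, and Apoe was at 5362 to 7120 CPM in the MCAO brain libraries against 26394 to 38170 in the meninges, and the part of both was likewise not tested. Endothelial markers were at 5.47 CPM in control pia and 0 in pia 24 h in Micro_1.

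**Figure D3:**
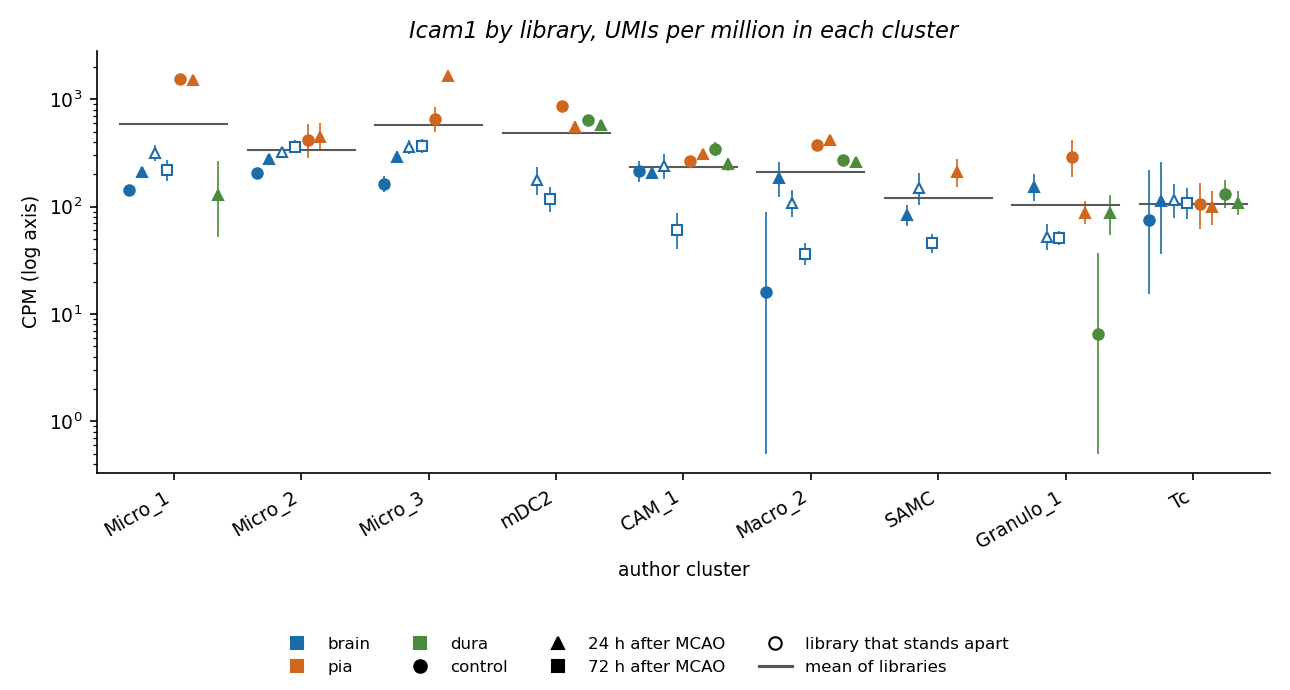
Icam1 in CPM (log axis) in 9 author clusters, one point per library with at least 30 cells, drawn with the symbols used for Selplg. Pia points lie above the brain points in Micro_1 (1546 and 1522 CPM) and Micro_3 (655 and 1653 CPM), while Tc differed little between libraries. The lowest points, in control brain Macro_2 and control dura Granulo_1, rest on 1 UMI each.

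Itgb7 separated lymphocytes, dendritic cells and mast cells from microglia and CAM. It averaged 740 ± 343 CPM in gdTc (n = 4), 423 ± 186 in ILC2 (n = 5), 368 ± 105 in type 1 myeloid dendritic cells (mDC1, n = 6), 359 ± 168 in Tc (n = 8) and 259 ± 98.0 in NK (n = 6). Mast cells held 230 ± 49.5 CPM (n = 2), mDC2 225 ± 41.4 (n = 6) and Granulo_1 188 ± 83.9 (n = 7), whereas Granulo_2 held 5.64 ± 3.48 (n = 6). Microglial and CAM clusters stayed between 2.66 and 14.8 CPM. The steps from Granulo_1 to Macro_2 and from Bc to Micro_1 stood out from the SDs of their clusters. gdTc was above ILC2, mDC1, Tc and NK in 4 of 4 shared libraries each.

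In Tc, Itgb7 was at 719 CPM in control brain, 425 in brain 24 h replicate 1, 222 in replicate 2 and 156 at 72 h, and at 344 in control pia, 376 in pia 24 h, 314 in control dura and 317 in dura 24 h. The meningeal values lay close together, and the libraries that stood apart were lowest. In Macro_2 of control brain no Itgb7 UMI was counted in 35 cells, where 3 UMIs would be 48.4 CPM. Brain 24 h replicate 1 had 152 CPM (24 UMIs), replicate 2 134 (61 UMIs) and brain 72 h 152 (284 UMIs), at least 3.13-fold, 2.78-fold and 3.15-fold higher than that floor of 3 UMIs in the control library. Meningeal Macro_2 held 8.32 CPM in control pia, 28.0 in pia 24 h, 36.8 in control dura and 29.7 in dura 24 h. All 3 MCAO libraries of brain thus lay above all 4 meningeal ones. Markers moved with this split. Apoe, a macrophage marker here, was at 5362, 6997 and 7120 CPM in the same MCAO brain libraries of Macro_2, against 29666 in control brain and 26394 to 38170 in the meninges. The mDC1 markers Clec9a and Xcr1 were at 0 in replicate 1, at 11.0 and 4.41 CPM in replicate 2 and at 21.5 and 25.8 CPM in brain 72 h, the last above mDC1 of that library (15.2 and 8.82), and at most 3.28 and 2.38 in the meninges. The part of these markers in the Itgb7 values was not tested.

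Itgae was read at low levels from few clusters. It averaged 36.4 ± 14.9 CPM in gdTc (n = 4) and 34.8 ± 17.7 in mDC1 (n = 6), and at most 7.38 CPM in each other cluster, with no UMI in Bc, Granulo_1, Granulo_2, mast cells and the single Macro_1 library. These means hide Macro_2 of brain 72 h, which held Itgae at 37.6 CPM (70 UMIs), against at most 4.41 in Macro_2 of the other libraries. The mDC1 markers Clec9a and Xcr1 were at 21.5 and 25.8 CPM in the same cells, and their part was not tested. The step from mDC1 to the next cluster, proliferating cells, was larger than both SDs. In gdTc it was at 54.6 CPM in brain 72 h, 42.4 in pia 24 h, 23.1 in control dura and 25.5 in dura 24 h, on 2 to 9 UMIs each. In mDC1 it was at 6.49 CPM in brain 24 h replicate 2, 45.7 at 72 h, 39.1 in control pia, 20.3 in pia 24 h, 43.9 in control dura and 53.2 in dura 24 h. Replicate 2 was lowest. Without both libraries that stood apart, mDC1 (39.1 CPM) came before gdTc (30.3 CPM).

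S1pr1 was highest in Bc and Tc. It averaged 129 ± 135 CPM in Bc (n = 6), 85.1 ± 49.3 in Tc (n = 8) and 81.6 ± 22.4 in stressed microglia (n = 2), and 18.5 ± 12.8 in NK (n = 6) and 16.1 ± 28.8 in ILC2 (n = 5). In Bc it was at 263 CPM in brain 24 h replicate 2 and 338 at 72 h, against 40.1 in control pia, 53.1 in pia 24 h, 42.0 in control dura and 37.3 in dura 24 h. The brain libraries with enough Bc were only those that stood apart, so tissue and library cannot be told apart for this cluster, and the stressed microglia came from those libraries alone (65.8 and 97.5 CPM). Without them Tc (62.3 CPM) came before Bc (43.1 CPM).

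Cd69 was highest in lymphoid clusters and mast cells. It averaged 390 ± 169 CPM in ILC2 (n = 5), 377 ± 476 in gdTc (n = 4), 368 ± 140 in Bc (n = 6), 362 ± 200 in Tc (n = 8), 345 ± 212 in mast cells (n = 2), 199 in the single Macro_1 library and 193 ± 148 in NK (n = 6). These leading clusters did not differ beyond their spread, and no neighbouring step in the order did. In gdTc it was at 1073 CPM in brain 72 h, 0 in pia 24 h, 245 in control dura and 189 in dura 24 h, so 1 library lay far above the others.

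In Tc, Cd69 was at 347 CPM in control brain, 469 in brain 24 h replicate 1, 671 in replicate 2 and 597 at 72 h, and at 198 in control pia, 137 in pia 24 h, 312 in control dura and 167 in dura 24 h. All brain values exceeded all meningeal values, and the difference of 1.54 (log2, SE 0.41, n = 3 against 4) did not pass the test (adjusted p = 0.0879 by edgeR). Within the meninges Cd69 was lower at 24 h in both pia and dura Tc.

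**Figure D4:**
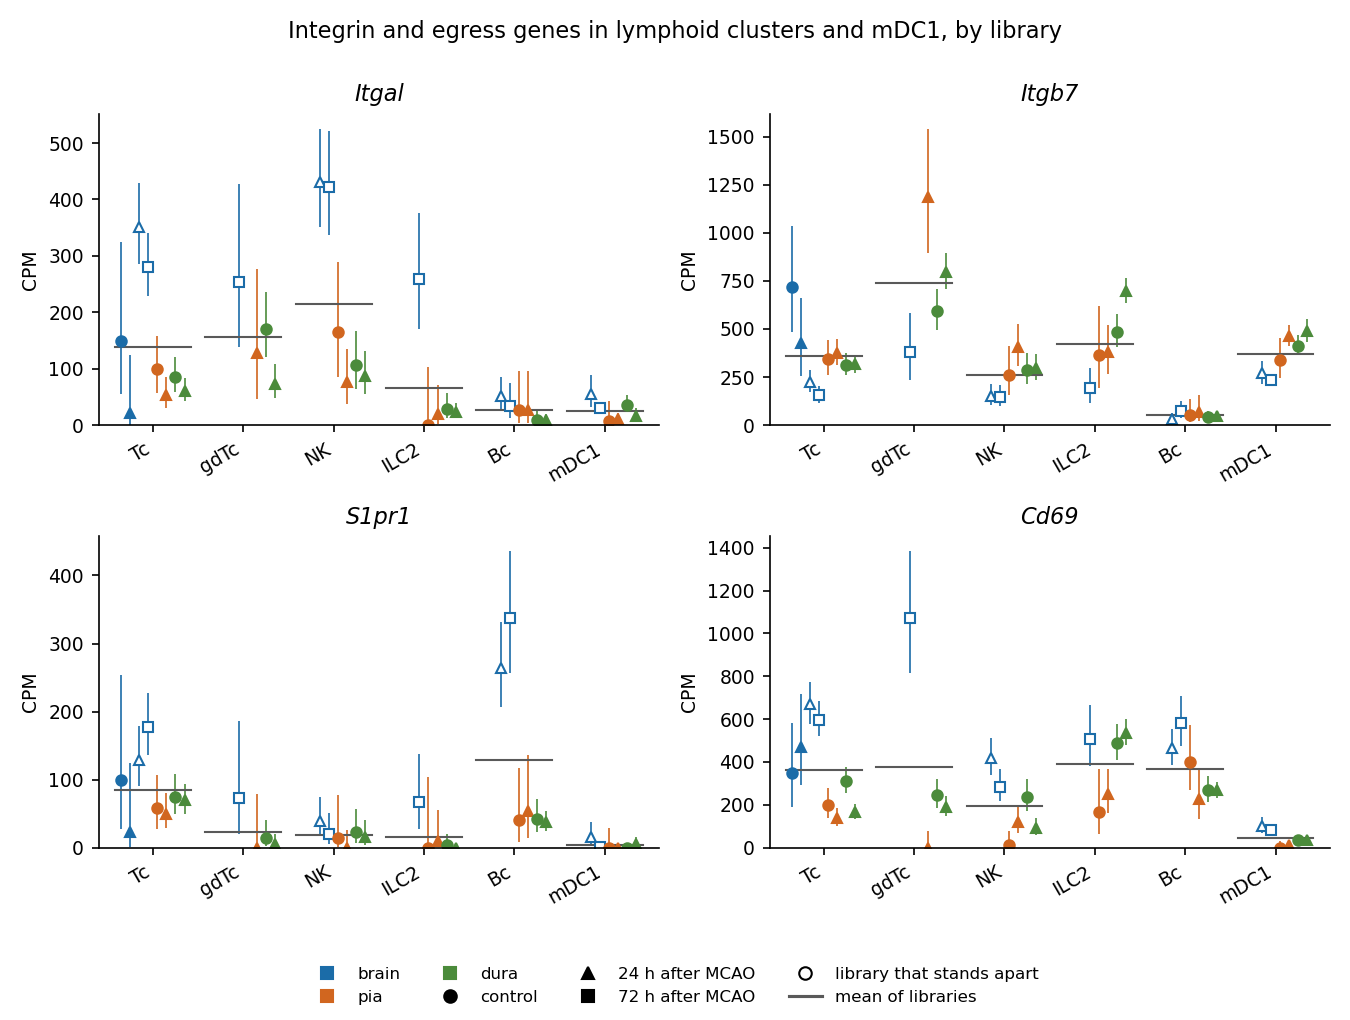
Itgal, Itgb7, S1pr1 and Cd69 in CPM (linear axes) in Tc, gdTc, NK, ILC2, Bc and mDC1, one point per library with at least 30 cells, with exact 95% Poisson intervals. Open symbols, the libraries that stood apart, are highest for Itgal in Tc and NK and for S1pr1 in Bc (263 and 338 CPM), and lowest for Itgb7 in Tc.

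To count cells, each cell with at least 1000 UMIs was thinned to 1000. Itgb7 was then seen in 46.3 ± 12.3% of gdTc (n = 3), 31.0 ± 13.6% of ILC2 (n = 4), 26.2 ± 8.00% of Tc (n = 6) and 24.2 ± 4.42% of NK (n = 6), but in 3.72 ± 0.887% of Bc (n = 5), against a background of 0 to 0.885% in Micro_1. Cd69 was seen in 28.8 ± 19.6% of gdTc (n = 3), 26.3 ± 6.26% of Bc (n = 5), 26.1 ± 6.76% of ILC2 (n = 4), 23.1 ± 10.5% of Tc (n = 6) and 11.5 ± 9.75% of NK (n = 6), against 0 to 0.885% in Micro_1. CAM_1 gave up to 2.33% for Itgb7 and 1.74% for Cd69 in a single library. Over all libraries, 9 of 2918 CAM_1 cells had an Itgb7 UMI and 17 a Cd69 UMI. The mean shares lay above these levels, with Itgb7 in Bc nearest to the highest CAM_1 library. Median depths before thinning were 1331 to 2170 UMIs in Micro_1 and 1485 to 2555 in CAM_1. Unthinned, Cd69 was seen in 30.4 ± 16.9% of Tc (n = 8) and Itgb7 in 35.0 ± 14.8% (n = 8).

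S1pr1 was seen in 11.5 ± 8.92% of Bc (n = 5) and 8.27 ± 3.06% of Tc (n = 6), but in 3.52 ± 4.38% of gdTc (n = 3), 1.71 ± 1.40% of NK (n = 6) and 1.53 ± 1.98% of ILC2 (n = 4). Micro_1 gave 0 to 7.63% and CAM_1 0.634 to 5.19%, the highest in the libraries that stood apart, and the shares in gdTc, NK and ILC2 were within these ranges. Micro_1 and CAM_1 held S1pr1 at mean levels of 26.8 and 26.5 CPM, so they cannot serve as a floor for this gene. Clusters with lower S1pr1 levels gave at most 1.96% (mDC1), 1.23% (mDC2) and 1.25% (Granulo_1). Itgae was seen in 3.38 ± 1.56% of gdTc (n = 3) and 0.981 ± 0.932% of Tc (n = 6), and in 0 of 427 Bc, which allows up to 0.703% of such thinned cells with a UMI and does not limit the share that express the gene. Without both libraries that stood apart, S1pr1 was seen in 5.12 ± 1.66% of Bc (n = 3) and 6.66 ± 2.02% of Tc (n = 4), where Micro_1 reached 1.69% and CAM_1 3.17%.

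CD69 and S1P receptor 1 work against each other on the cell surface, and their transcripts were also seen in the same cells. Among thinned Tc, S1pr1 was seen in 9.42% of 223 cells with a Cd69 UMI and in 7.77% of the cells without one. Among thinned Bc the shares were 12.3% of 122 cells and 14.0%, an order that turned at 500 UMIs (7.69% and 6.47%) and without thinning (14.3% and 13.7%). In gdTc they were 6.49% of 77 cells and 0.984%, with 8 S1pr1-positive cells in all. Among mDC1, Itgb7 was seen in 34.6% of 26 cells with an Itgae UMI and in 26.3% of those without at 1000 UMIs, but in 0 of 15 and 14.2% at 500. These cells were pooled over libraries and the shares carry no test.

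Over the 21 cluster means (Pearson r on log2(CPM + 1), a description over clusters that share libraries), the members most alike were Itgb7 and Cd69 (r = 0.74) and Selplg and Icam1 (r = 0.67). The chains of LFA-1, Itgal and Itgb2, gave r = 0.39, and those of the CD103 integrin, Itgb7 and Itgae, r = 0.48. Among 6458 genes with a cluster mean of at least 50 CPM, the 3 most alike were Bin2 (0.80), Pdk1 and Pum2 (both 0.75) for Selplg, Ccdc88c (0.91), Mbd2 (0.90) and Grk6 (0.89) for Itgal, and Twf2 (0.87), Cap1 and Cln3 (both 0.85) for Itgb2. They were Tmsb10, Pkp3 and Uqcrh (each 0.92) for Itgb7 and Adgrg5 (0.76), Dkkl1 (0.75) and Tcf19 (0.71) for Itgae. For Icam1 they were Stat3 (0.84), Btg2 (0.83) and Socs3 (0.82), for S1pr1 Fam53b (0.83), Tle4 (0.78) and Dicer1 (0.77), and for Cd69 Tespa1 (0.87), Il2rg (0.85) and 4930523C07Rik (0.83).

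The second test asked whether members differed between MCAO at 24 h and control in a way common to the tissues, with tissue as a block. Of 69 tests of members in 13 clusters, 0 were called by the edgeR quasi-likelihood test and 0 by DESeq2, where 0.512% of 76633 tests of all genes were called by edgeR. At an unadjusted p under 0.05 there were 4 member tests by edgeR and 2 by DESeq2, against 5.66% of all edgeR tests. DESeq2 called 0.135% of all tests with an adjusted p. By cluster, edgeR called 0.0127% of all genes in Micro_2, 0.0207% in CAM_2, 1.24% in mDC1, 1.78% in mDC2, 0.526% in Bc, 3.01% in ILC2 and 1.89% in NK, and 0% in the other 6 clusters. The 4 were Selplg in CAM_2 (log2 difference -1.59, SE 0.66, adjusted p = 0.580), Selplg in ILC2 (-0.55, SE 0.28, adjusted p = 0.377), Icam1 in mDC2 (-0.43, SE 0.18, adjusted p = 0.294) and Icam1 in Bc (1.88, SE 0.69, adjusted p = 0.411), all by edgeR. In mDC2, Icam1 was at 872 CPM in control pia and 640 in control dura, and at 557 in pia 24 h, 580 in dura 24 h and 177 in brain 24 h replicate 2. The groups did not overlap, although brain had no control value there.

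The count of 0 depended on brain 24 h replicate 2 and on the minimum of cells. With at least 50 cells, edgeR called 1 of 40 member tests, Cd69 in Tc, beside 272 of 47702 tests over all genes. Without replicate 2, 4 of 61 member tests were called by edgeR, where 3.03% of all tests were. Selplg was lower after MCAO in CAM_2 (-1.22, adjusted p = 0.0318 by edgeR), where the microglial sum was also lower in brain (11521 CPM in control, 2328 in replicate 1), a shift whose part was not tested. Cd69 was lower in Macro_2 (-1.17, adjusted p = 0.0199 by edgeR). The lowest Cd69 value in Macro_2, 6.32 CPM in replicate 1, rests on 1 UMI. Itgb2 was higher after MCAO in CAM_1 (0.86, adjusted p = 0.0224 by edgeR) and in Macro_2 (0.89, adjusted p = 0.00361 by edgeR). Markers moved in brain in these clusters too. From control brain to replicate 1, the microglial sum in CAM_1 went from 10162 to 2583 CPM, and Apoe in Macro_2 from 29666 to 5362. Their part in the Itgb2 and Cd69 calls was not tested.

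**Figure D5:**
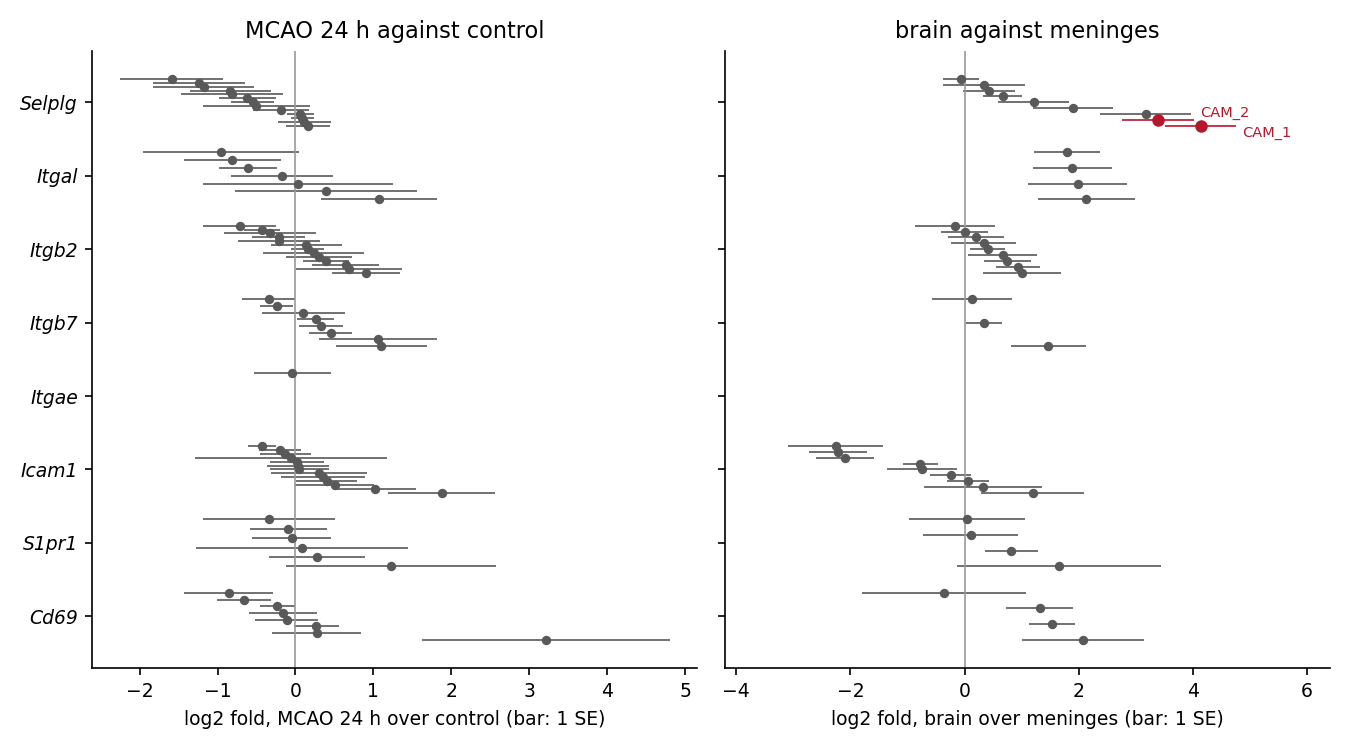
Log2 differences of the 8 genes in each tested cluster, one point per cluster with a bar of 1 SE, for MCAO 24 h over control (left) and for brain over meninges (right). The 2 called values, Selplg in CAM_1 (4.14) and CAM_2 (3.39), are coloured and named, and Itgae had no tested cluster on the right.

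Within a single tissue there is 1 library per state, or 2 for brain at 24 h, so values were set side by side without a test, and a pair of sums counted as changed when it differed more than 2-fold with at least 20 UMIs. In brain 24 h replicate 1, 3 of 25 pairs of member and cluster were higher than in control brain and 3 lower, beside 8.86% and 4.78% of all genes. In replicate 2, 11 of 33 were higher and 10 lower (32.0% and 17.7% of all genes), and at 72 h 14 of 39 and 10 (26.5% and 19.1%). In pia, 9 of 56 were higher and 3 lower at 24 h (8.97% and 5.88%), and in dura 3 of 70 and 7 (4.33% and 4.35%). The exact 95% Poisson intervals of both values were apart in 6 of 6 pairs for replicate 1, in 18 of 21 for replicate 2, in 20 of 24 at 72 h, in 10 of 12 in pia and in 7 of 10 in dura. The control sum held 0 UMIs in 1 of these pairs for replicate 1, 2 for replicate 2, 6 at 72 h, 1 in pia and 0 in dura. Such pairs reached 20 UMIs through the MCAO library alone. For Itgae in Macro_2 at 72 h, counted as higher at 37.6 CPM, the upper limit in control brain was 59.6 CPM.

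Selplg carried the falls in brain. It was more than 2-fold lower than in control brain in 3 of 7 clusters in replicate 1 (CAM_1, CAM_2 and Macro_2), in 7 of 7 in replicate 2 and in 6 of 7 at 72 h, against 0 of 13 in pia and 1 of 13 in dura. Markers moved with the fall in replicate 1: from control brain, the microglial sum went from 10162 to 2583 CPM in CAM_1 and from 11521 to 2328 in CAM_2, and Apoe from 29666 to 5362 in Macro_2. In Micro_1 the microglial sum was 15984 CPM in control brain, 10465 in replicate 1, 3749 in replicate 2 and 4930 at 72 h. In the same libraries it was 11053, 6628, 2934 and 4250 CPM in Micro_2, and 11564, 4594, 2256 and 3889 in Micro_3. The part of all these markers was not tested. In replicate 1, the only MCAO brain library that did not stand apart, Micro_1 held Selplg at 4344 CPM against 4615 in control brain. S1pr1 was higher in 4 of 5 clusters in replicate 2 and 5 of 6 at 72 h, but in 0 of 2 in replicate 1. Cd69 was lower in dura NK (235 to 91.0 CPM), in dura mast cells (495 to 195 CPM) and in pia Macro_2 (22.9 to 9.52 CPM). In brain, Cd69 was higher in 1 of 3 clusters in replicate 2 and in 2 of 4 at 72 h, and lower in 0. Icam1 was higher in pia Micro_3, and in brain Micro_3 it was at 162 CPM in control and 368 at 72 h. It moved both ways: at brain 72 h it was higher in 1 and lower in 2 of 7 clusters. In pia it was higher in 1 and lower in 1 of 13, and in dura higher in 2 and lower in 1 of 12. Icam1 was higher in 1 of 6 clusters in replicate 1 and in 3 of 7 in replicate 2, and lower in 0.

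Of 56 further genes of selectin ligand synthesis, integrins, their activation and ligands, and egress, 41 could be tested for MCAO at 24 h. In 311 tests by edgeR, 0 were called higher and 2 lower, close to the share of 0.512% over all genes (1.24% in mDC1 and 3.01% in ILC2). The calls were Klf2, a transcription factor that drives S1pr1, in mDC1 (-1.23, SE 0.30, adjusted p = 0.00711) and St3gal6, a sialyltransferase that helps build selectin ligands, in ILC2 (-1.17, SE 0.35, adjusted p = 0.0366). DESeq2 called neither. In mDC1 Klf2 fell from 352 to 117 CPM in pia and from 277 to 151 in dura, and stood at 412 in brain 24 h replicate 2, above both meningeal controls. The median log2 difference of the list was -0.03, beside 0.04 for all genes.

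Between brain and meninges 40 of these genes were tested, and of 216 tests by edgeR 13 were called higher in brain and 6 lower, in 11 genes, where over all genes 667 of 53741 were called higher and 966 lower (3.04% in all). By edgeR, Vcam1, a ligand of the integrin VLA-4, was lower in brain in CAM_1 (-5.41, SE 0.54, adjusted p = 0.000527), Micro_2 (-5.99, SE 0.85, adjusted p = 0.000786) and Macro_2 (-5.40, SE 0.84, adjusted p = 0.0281). In CAM_1 it was at 23.6, 12.7 and 29.1 CPM in control brain and brain 24 h replicates 1 and 2, against 353 to 1154 in the meninges. In Macro_2 each of these brain libraries held 1 Vcam1 UMI. CAM markers in CAM_1 summed to 41.9, 6.66 and 420 CPM in these brain libraries, against 3100 to 5075 in the meninges. In Micro_2 they summed to 2632 and 1676 CPM in pia, against 1.83 to 13.8 in these brain libraries. The part of these markers in the Vcam1 differences was not tested. By edgeR, Jam2, a junctional adhesion molecule, was higher in brain in CAM_1 (4.78, SE 0.66, adjusted p = 0.00194) and Itga6, a laminin-binding integrin chain, in CAM_2 (3.25, SE 0.51, adjusted p = 0.00320). Jam2 in CAM_1 was at 65.5 CPM in control brain, 32.0 and 20.8 in replicates 1 and 2 and 0 in brain 72 h, which the test did not use, against 0 to 1.64 in the meninges. The microglial sum ran 10162, 2583, 961 and 420 CPM over the same brain libraries, and its part was not tested. Itga6 in CAM_2 was at 102, 83.2 and 259 CPM in control brain and replicates 1 and 2, against 7.48 to 17.6 in the meninges. In CAM_2 of these brain libraries the microglial sum was 11521, 2328 and 777 CPM, against 180 to 306 in the meninges. The CAM sum was 15.3, 6.24 and 383 CPM, against 2547 to 4517. The part of these markers in the Itga6 difference was not tested. The median over the list was 0.52, beside 0.09 for all genes. Of the 4 integrin beta genes listed, 2 could be tested, with 2 of 17 tests higher in brain, both in 1 gene.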

How the data were processed

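CD45iv- CD45+ leukocytes were sorted from brain parenchyma, pia and dura and profiled as 8 scRNA-seq libraries. The authors made the deposited UMI count matrices with Cell Ranger 6.0 on mm10, and removed low-quality cells and doublets (scDblFinder 1.6) and clustered cells (Seurat 4.0.4) before depositing the cluster annotation, whose library and cluster names are used here. Its deposited UMAP coordinates, a score with no unit, were not used. No doublet caller was run here, and 6.42% to 20.2% of barcodes without annotation were left out of clusters. Genes were matched by identifier. A single gene of the marker check is not reported here and was left out of its sums.

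UMIs were summed per library and cluster (at least 30 cells). CPM divides by the total of the sum over the shared genes. Each cluster was fitted with edgeR 4.0.16 (quasi-likelihood test, TMM, filter on low counts, limma 3.58.1, R 4.3.3), with state and tissue as terms, over libraries of control and 24 h. DESeq2 1.42.0 was an alternative, and others were scaling by library size alone, no low-count filter, 10 or 50 cells as the minimum, matching by symbol, another thinning depth and leaving out each library. Leaving out both libraries whose barcodes start with AAACCC was chosen after seeing the data. On simulated counts with 200 genes changed 4-fold, edgeR recovered 57.5% in Macro_2 (MCAO, 7999 genes), 50.5% in Macro_2 (brain against meninges, 7883 genes), 60% in Tc (MCAO, 4889 genes) and 85% in ILC2 (MCAO, 2705 genes). Python 3.11.15 with numpy 2.4.6, pandas 2.3.3, scipy 1.17.1 and matplotlib 3.10.9 did the rest.

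The members were named by list, so the named genes were the 8 members, the 3 genes most like each, and up to 5 called genes per test of the trafficking list with the smallest p. Members and lists were chosen with earlier results of these data known. Since the sources used here do not assign mice to libraries, p-values measure the spread between libraries. Poisson and binomial intervals and floors of 3 counts cover counting error only. Ratios within a tissue add 0.5 UMIs to both sums.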

Additional observations from a re-analysis of the deposited data

Results flagged for a closer look

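Icam1 in Granulo_1 moved in opposite ways in the meninges: the log2 ratio of 24 h over control was -1.72 in pia and 3.16 in dura. The dura value rests on 1 UMI in the control library, and the difference between the tissues was not tested.

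Barcodes that the annotation does not place in a cluster also carried some members above the level in the control library of the same tissue, and others below it. Itgal was at 22.9 CPM in brain 24 h replicate 2 and 72.2 in brain 72 h, against 5.41 in control brain. Itgb7 was at 72.4 CPM in brain 72 h against 17.3 in control brain, and at 80.5 in pia 24 h against 38.0 in control pia. S1pr1 was at 41.8 CPM in brain 24 h replicate 2 and 35.0 in brain 72 h, against 11.9 in control brain. Lower in these 2 libraries than in control brain were Selplg (251 and 267 against 3759 CPM), Itgb2 (98.0 and 206 against 300) and Icam1 (80.0 and 65.2 against 166). Cd69 was at 21.4 CPM in replicate 2 and 44.9 in brain 72 h, against 40.1 in control brain. The part of the libraries that stood apart in these brain values was not tested.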

How the results depend on the processing

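Calls were few and moved with single libraries. For MCAO at 24 h, the count of member tests called, 0, became 1 (Cd69 in Tc) with at least 50 cells and ranged from 0 to 4 when each library was left out. The count over all genes, 392, became 72 by DESeq2, 260 with library size alone and 64 with at least 10 cells, and ranged from 5 to 1996 when each library was left out. Between brain and meninges, the count of member tests called, 2, became 6 by DESeq2, 5 without the low-count filter and 5 with at least 10 cells. It ranged from 1 to 11 when each library was left out. The count over all genes, 1633, became 3355 without the filter and ranged from 417 to 5063. Library size alone moved the share of calls higher in brain from 40.8% to 61.7%, and shifted the median of all genes by 0.37 (log2) in CAM_1, 0.34 in Macro_2 and 0.18 in CAM_2.

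The log2 difference of Cd69 in Macro_2 between brain and meninges, 1.32, ranged from -0.18 (without brain 24 h replicate 2) to 1.74, and that of Cd69 in Tc after MCAO from -0.74 to 0.26, with 0.04 without control pia, 0.05 without pia 24 h and 0.26 without either dura library. The cause was not tested. Cd69 in ILC2 was 578 CPM with at least 10 cells. Thinned to 500 UMIs, shares were 13.8% (Cd69 in ILC2), 15.7% (Cd69 in Bc), 3.72% (S1pr1 in Tc), 0.856% (Itgae in gdTc), and for Itgb7 15.3% in Tc, 27.9% in gdTc and 10.1% in NK. Not thinned, Itgb7 was seen in 35.0% of Tc, 29.4% of NK and 5.95% of Bc. No analysis paired by mouse was possible because the sources used here do not assign mice to libraries.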
